A study of Mus musculus with 4 samples.

Results

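Newly forming oligodendrocytes of the mouse lateral septum (LS) were selected by their counts of 3 genes, Bcas1, Enpp6 and Gpr17. A nucleus was taken when it held at least 2 unique molecular identifiers (UMIs, each 1 counted RNA molecule) of Bcas1, at least 2 of Enpp6 and Gpr17 together, and at least 0.1% of all its UMIs from the 3 genes. The rule found 536 of 55660 nuclei that had 200 to 6000 genes and less than 2% mitochondrial UMIs, and C57J 1 gave 109 of them, C57J 2 102, nude 51 and BALB/c 274. They were set against 1346 oligodendrocyte precursors (OPCs), chosen by Pdgfra, Cspg4 and Vcan, and 3507 mature oligodendrocytes (OLs), chosen by Mog, Mag and Mobp. The 9 genes of the 3 gates were left out of all calls, except that the genes of the precursor and mature gates were tested between the Enpp6 and Gpr17 sides described below.

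The LS was dissected from male mice of 6 to 8 weeks, and the nuclei of 3 mice were pooled in each of 4 single-nucleus RNA sequencing libraries. C57J 1 (sequencing batch 1) and C57J 2 (batch 2) came from C57BL/6JNifdc mice. The nude library came from BALB/c nude mice, which lack functional Foxn1 and with it most T cells, and the BALB/c library from BALB/c mice, both in batch 2. Nude and BALB/c therefore share a strain background, which differs from that of both C57J libraries, and strain, T cell state and, in C57J 1, batch cannot be told apart here. No mouse was treated. Where 4 values follow each other, the first 2 are those of C57J 1 and C57J 2, then come nude and last BALB/c. A level (CPM) is the number of UMIs of a gene among 1000000 UMIs summed over the class in that library. Each library is 1 pool of mice. For classes or sides compared within libraries, a p-value measures how far their difference varied between pools. Between backgrounds it measures the spread of pools within a background, which includes the difference of nude from BALB/c. The median depth of the nuclei kept was 5851, 4435, 4885 and 8877 UMIs, so BALB/c was sequenced most deeply, and 29 to 63 cell barcodes were shared between any pair of libraries.

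Oligodendrocytes arise throughout life from dividing precursors. A precursor that commits to differentiation passes through a short premyelinating stage, in which it loses Pdgfra, extends many fine processes and meets axons, before it wraps them with myelin or dies. Bcas1 encodes a protein of the oligodendrocyte cytoplasm that is found from commitment to early myelination, Enpp6 a choline-specific phosphodiesterase that marks cells about to myelinate, and Gpr17 a G protein-coupled receptor that is switched on in committed precursors and off before myelination.

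In mm10 with the GENCODE vM21 annotation, Bcas1 lies on chr2:170346991-170427845 (minus strand) and Enpp6 on chr8:46986887-47096762 (plus). Promoter sequence is shown for a gate gene, Enpp6, and for 2 genes that turned out higher in these nuclei than in both other classes, Bmp4 and Fyn. The 300 bases run from 250 before to 50 after the start given by RefSeq (GRCm38.p6), at chr8:46986637-46986936 (plus strand) for Enpp6, chr14:46390620-46390919 (minus strand) for Bmp4, chr10:39369549-39369848 (plus strand) for Fyn. Capitals mark each match, on either strand, to an E-box (CAGCTG), a SOX motif (AACAAT) or a TCF/LEF motif (CTTTGA).

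Enpp6: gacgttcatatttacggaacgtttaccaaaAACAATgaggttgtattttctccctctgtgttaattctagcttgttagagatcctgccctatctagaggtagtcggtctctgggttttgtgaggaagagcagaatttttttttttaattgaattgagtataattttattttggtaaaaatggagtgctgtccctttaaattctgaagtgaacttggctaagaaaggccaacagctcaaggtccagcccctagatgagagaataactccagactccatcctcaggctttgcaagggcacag
Bmp4: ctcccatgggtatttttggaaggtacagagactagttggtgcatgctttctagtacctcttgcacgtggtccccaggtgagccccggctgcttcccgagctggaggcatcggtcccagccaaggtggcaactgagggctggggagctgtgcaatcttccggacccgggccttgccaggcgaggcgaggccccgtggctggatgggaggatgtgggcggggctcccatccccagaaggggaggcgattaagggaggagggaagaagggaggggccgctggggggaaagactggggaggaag
Fyn: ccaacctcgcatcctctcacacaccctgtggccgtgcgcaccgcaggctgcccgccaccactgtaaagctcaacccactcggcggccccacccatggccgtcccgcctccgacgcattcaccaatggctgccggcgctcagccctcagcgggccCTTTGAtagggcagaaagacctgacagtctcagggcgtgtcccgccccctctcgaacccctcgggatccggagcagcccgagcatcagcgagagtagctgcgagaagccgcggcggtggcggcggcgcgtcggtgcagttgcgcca

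Enpp6 held 1 SOX match and Fyn 1 TCF/LEF match, and these letters were not in the Bmp4 window. Of 32851 promoters of the same length, 16.3% held the E-box letters, 10.7% the SOX letters and 16.0% the TCF/LEF letters, so a match is a description of the window only.

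The name held for only some of the selected nuclei. Of the 536, 226 met neither of the other gates, 138 also met the precursor gate, 169 also met the mature gate and 3 met both. The nuclei that met neither gate made up 67.0, 70.6, 74.5 and 15.7% of those selected, so in BALB/c 231 of 274 also carried precursor or mature marker RNA. When the nuclei with at least 2000 UMIs were thinned to 2000 and gated again, this share was 86.2, 88.7, 92.6 and 64.1%, and BALB/c remained the lowest. The shallower nuclei, 1255, 2883, 2419 and 163 of all nuclei kept, were left out there.

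Nuclei that also met the precursor gate had low levels of some genes of the new stage, but not of Tnr. Their level of Tcf7l2, a transcription factor of the Wnt pathway, was 137, 56.3, 0 and 219 CPM, against 1385, 1589, 1648 and 2371 CPM in the nuclei that met neither gate. Frmd4a, a FERM domain scaffold gene that was not used in any gate, stood at 493, 281, 457 and 282 against 8592, 8899, 11344 and 17974 CPM. Ptprz1, a receptor phosphatase of precursors, stood at 2492, 1631, 2740.4 and 2565 against 528, 527, 510.0 and 531 CPM. In all 4 libraries the groups lay apart for these 3 genes. The levels of precursors were nearby for the same genes: 129.9, 133, 156 and 188 CPM of Tcf7l2, 556, 451, 555 and 450.1 of Frmd4a and 2224, 2323, 2257 and 2362 of Ptprz1 in that class. Tnr, the extracellular matrix gene tenascin-R, was at 4081, 4669, 3958 and 4105 CPM in the nuclei with precursor markers, above the 2971, 3312, 2924 and 3132 CPM of precursors in every library and below the 6985, 7356, 6898 and 7894 CPM of the nuclei that met neither gate. For 3 of these 4 genes the values of the 118 such nuclei of BALB/c were thus nearer to precursors than to the nuclei that met neither gate, and for Tnr they lay between. C57J 1, C57J 2 and nude had 11, 5 and 4 such nuclei. Of the 43 BALB/c nuclei that met neither gate, 27 were predicted doublets, as described below. The other 16 held 719 CPM of Tcf7l2, 5238 of Frmd4a, 1023 of Ptprz1 and 6322 of Tnr. Results are therefore given for all nuclei of the rule and again for the nuclei that met neither other gate.

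Nuclei that also met the mature gate differed between libraries in their levels of stage genes. They held 6653, 3723, 6564 and 2759 CPM of Frmd4a, all above the 559, 618, 634 and 381 CPM of mature oligodendrocytes, and 2369, 882, 809 and 341 CPM of Tcf7l2, which in C57J 1 was above the nuclei that met neither gate and in the other 3 libraries below them. BALB/c supplied 110 of the 169, and its values were far below those of its nuclei that met neither gate: 341 against 2371 CPM of Tcf7l2, 355 against 3446 of Fyn, 531 against 7894 of Tnr and 94.9 against 906 of Itpr2, an inositol trisphosphate receptor gene. Its Itpr2 was near the 71.3 CPM of BALB/c mature oligodendrocytes, while Tcf7l2, Fyn and Tnr were above the 103, 154 and 102 CPM of that class. The 25 such nuclei of C57J 1 had 1214 CPM of Itpr2 and 1223 of Fyn. Their Mbp, the major protein of compact myelin, was 5558, 5261, 2551 and 4805 CPM, against 1884, 2229.8, 2504 and 3426 CPM in the nuclei that met neither gate. Mbp was higher in the nuclei with mature markers in every library, in nude by little. Without predicted doublets, the BALB/c nuclei that met neither gate held 719 CPM of Tcf7l2, 3069 of Fyn, 6322 of Tnr and 1218 of Itpr2. For Tcf7l2 the gap to the BALB/c nuclei with mature markers was then much smaller.

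At the border of the rule the stage genes were low in BALB/c and higher in the other libraries. Over the 4 libraries, 210 nuclei sat just inside it, with exactly 2 Bcas1 or exactly 2 Enpp6 and Gpr17 UMIs, and held 276 CPM of Tcf7l2, 473 of Fyn and 1015 of Frmd4a. The 372 nuclei just outside, with 1 UMI too few in 1 of the 2 counts, held 181, 335 and 531 CPM of the same genes. In the 163 nuclei with at least 5 UMIs of Bcas1 and 5 of Enpp6 and Gpr17, the levels were 1906, 2908 and 12671 CPM. BALB/c supplied 117 of the 210 nuclei just inside the border, with 148, 222 and 242 CPM of Tcf7l2, Fyn and Frmd4a, against 135, 230.5 and 269 CPM just outside. The 24 nuclei of nude just inside held 843, 1218 and 4539 CPM, against 272, 563 and 1068 just outside, and Frmd4a just inside was at 2068 CPM in C57J 1 and 1318 in C57J 2, against 572 and 877. The low pooled values were thus mostly those of BALB/c.

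**Figure D1:**
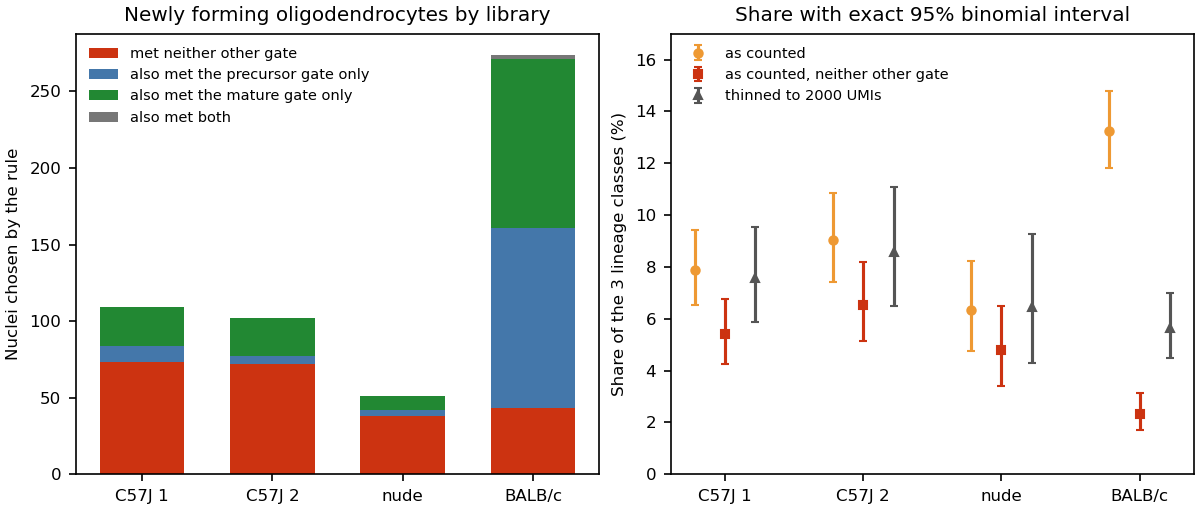
Left, number of nuclei selected by the rule in each library, split by whether they also met the precursor or the mature gate. Right, their share (%) of the 3 lineage classes with exact 95% binomial intervals, as counted, without nuclei that met another gate, and after thinning the nuclei with at least 2000 UMIs to that depth; BALB/c was highest as counted (13.2%) and lowest in both other settings (2.34% and 5.65%).

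The share of newly forming nuclei among the 3 lineage classes describes how many gated nuclei fell under the rule, and not how many cells were differentiating. C57J 1 had 7.88% (95% interval 6.51 to 9.42%), C57J 2 9.03% (95% interval 7.42 to 10.9%), nude 6.32% (95% interval 4.74 to 8.23%) and BALB/c 13.2% (95% interval 11.8 to 14.8%), where intervals are exact binomial and cover counting error only. Nude lay below both C57J libraries and BALB/c above them, and the exact permutation test of 2 libraries against 2 gave p = 1 (two-sided). Without the nuclei that met another gate the shares were 5.42, 6.55, 4.79 and 2.34%, and with nuclei thinned to 2000 UMIs, the shallower ones left out, they were 7.57, 8.59, 6.46 and 5.65%. In both settings nude and BALB/c lay below both C57J libraries (p = 0.333, exact permutation test, the smallest that 2 against 2 can give). The direction for BALB/c over the 3 lineage classes thus turned with thinning and with the nuclei counted. The count of mature nuclei fell unequally with thinning, from 766 to 388 in C57J 2 and from 1365 to 944 in BALB/c. Over all nuclei kept, the share in BALB/c was 2.27%, against 0.735 and 0.725% in both C57J libraries, and after thinning it was still above them, at 0.655% against 0.479 and 0.474%. Without nuclei that met another gate it was below them over all nuclei, at 0.356 against 0.492 and 0.512%, and after both steps it was level with them, at 0.4196% against 0.412 and 0.42%. Nude was below both C57J libraries over all nuclei in each of these settings (0.348, 0.2204, 0.259 and 0.204%). A difference between backgrounds could not be shown with this design.

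Among the members, the gate genes themselves varied widely. They are given as a description because they chose the nuclei. The median nucleus held 14, 10, 12 and 5 Bcas1 UMIs in the 4 libraries, and 19, 16, 15.5 and 43 among nuclei that met neither other gate. Enpp6 had medians of 3, 2, 2 and 2 UMIs and Gpr17 of 2, 1, 1 and 2, with maxima of 24, 13, 18 and 28 and 14, 7, 5 and 27 UMIs. Both RNAs were found in the same nucleus in 51.4, 44.1, 35.3 and 16.8% of all members and in 68.5, 56.9, 42.1 and 72.1% of those that met neither other gate. BALB/c was the lowest library over all members and the highest among the nuclei that met neither other gate. In nuclei that met none of the 3 gates, the share was 0.0372, 0.0464, 0.0289 and 0.04% at a median depth of 6308, 4750, 5121 and 10308 UMIs. Such nuclei can still belong to the lineage, so this share is not a measure of background alone.

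The median depth of the members was 4272, 3649.5, 3364 and 5700 UMIs and that of the nuclei that met neither other gate 4677, 3686, 3466 and 6866 UMIs, against 3616, 2748, 2820 and 5460 UMIs in precursors and 2717, 2360, 2176 and 4028 in mature oligodendrocytes. Members were thus deeper than both other classes in every library, and the rule needs at least 4 UMIs of its genes. For the shares, nuclei with at least 2000 UMIs were thinned to that depth and gated again, which left 78 members in BALB/c. Gene tests after thinning kept the classes chosen at full depth, with 274 members in BALB/c, so selection by depth remained in them. Predicted doublets numbered 20, 12, 4 and 36 of the members. They are the nuclei with the highest doublet scores, up to a share of each library that was set beforehand. Of the nuclei that met neither other gate they were 18 of 73, 9 of 72, 4 of 38 and 27 of 43, so only 16 such nuclei of BALB/c were not predicted doublets. Values with the doublets removed from that set are given below for part of the results only, as an alternative chosen after seeing the data.

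UMIs were summed per library and class and tested with edgeR's quasi-likelihood test, with the library as a term and Benjamini-Hochberg adjustment over all genes tested. A gene was called higher or lower at an adjusted p below 0.05 and a log2 fold change beyond 0.5. Against precursors, 1119 of 11117 genes were higher in newly forming oligodendrocytes (10.1%) and 1068 lower (9.61%). Against mature oligodendrocytes, 1154 were higher (10.4%) and 926 lower (8.33%). Of the genes tested, 268 were higher (2.41%) and 62 lower (0.558%) than in both classes. For the nuclei that met neither other gate, 950 of 10482 genes were higher (9.06%) and 1108 lower (10.6%) than in precursors, 1071 higher (10.2%) and 1147 lower (10.9%) than in mature oligodendrocytes, and 438 higher (4.18%) and 180 lower (1.72%) than in both. Of the genes called with all members, 73.2% of those against precursors and 79.1% of those against mature oligodendrocytes were called in the same direction with the nuclei that met neither gate. These nuclei were further chosen for few precursor and mature marker UMIs, so falls of genes that follow those markers in part reflect the choice. With predicted doublets removed from the nuclei that met neither gate and from both other classes, 840 of 10049 genes were higher and 991 lower than in precursors, 942 higher and 1035 lower than in mature oligodendrocytes, and 352 higher and 135 lower than in both. Of the calls made before that removal, 76.5% of those against precursors and 78.7% of those against mature oligodendrocytes were made again in the same direction. Without the BALB/c library, 2022 of 10178 genes were called against precursors and 1856 against mature oligodendrocytes.

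Genes known from the committed and newly formed stage were high in the members. Of 17 tested genes of that list, 16 were higher than in precursors and 16 higher than in mature oligodendrocytes, 15 were higher than in both, and none was lower, with median log2 fold changes of 2.75 and 2.68, against -0.03 and -0.03 over all genes. In the nuclei that met neither other gate all 17 were higher than in both classes, with medians of 3.29 and 3.21. With predicted doublets also removed all 17 were again higher than in both (3.06 and 3.06), and without BALB/c the 17 were also higher in both comparisons. The list was picked with earlier results of these data known, so its direction is a description. The exceptions among all members were Neu4, a sialidase gene, at 232, 115, 212 and 149 CPM against 142, 107, 131 and 206 in precursors (log2 fold change 0.22, not called), and Lims2, at 54.5, 53.0, 40.4 and 24.1 against 26.4, 43.9, 24.0 and 16.7 CPM in mature oligodendrocytes (0.62, not called). Casr, the calcium-sensing receptor gene, was too low to test.

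Tcf7l2 (chr19:55741820-55933654) was at 1507, 1384, 1402 and 711 CPM in the members, 129.9, 133, 156 and 188 in precursors and 85.8, 122, 87.4 and 103 in mature oligodendrocytes. No library of the members overlapped either class, and the log2 fold change was 3.02 ± 0.23 SE, adjusted p = 3.53e-08 against precursors and 3.66 ± 0.23 SE, adjusted p = 4.45e-09 against mature oligodendrocytes. In the nuclei that met neither other gate Tcf7l2 was at 1385, 1589, 1648 and 2371 CPM, and BALB/c turned from the lowest library to the highest. That value rests on 43 nuclei, of which 27 were predicted doublets, and in the other 16 it was 719 CPM, against 1757, 1956 and 1964 in the remaining libraries, so that BALB/c was again the lowest. The folds without predicted doublets were 3.31 ± 0.28 and 4.04 ± 0.28 (SE), both called. A turn in all nuclei of that set was also seen for Fyn (chr10:39368855-39565381), a Src family kinase needed for myelination, which was at 2385, 2276, 2255 and 1028 CPM in all members and at 2896, 2707, 2681 and 3446 in those that met neither other gate, against 283, 272, 307 and 353 in precursors and 175, 206, 197 and 154 in mature oligodendrocytes. Without predicted doublets Fyn was at 3829, 3134, 3108 and 3069 CPM there, with BALB/c the lowest and near nude and C57J 2. The log2 fold change of Fyn in all members was 2.67 ± 0.21 SE, adjusted p = 7.28e-08 against precursors and 3.44 ± 0.22 SE, adjusted p = 4.52e-09 against mature oligodendrocytes.

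Bmp4 (chr14:46383520-46390669), which encodes a secreted growth factor of the TGF-beta family, stood far above both other classes. It was at 98.5, 104, 75.7 and 40.3 CPM in all members and 133, 138, 91.5 and 171 in the nuclei that met neither other gate, against 4.15, 0, 2.18 and 3.41 in precursors and 0.635, 0, 0.857 and 0.306 in mature oligodendrocytes. In those nuclei the log2 fold change was 5.63 ± 0.31 SE, adjusted p = 2.78e-10 against precursors and 8.36 ± 0.36 SE, adjusted p = 4.67e-12 against mature oligodendrocytes, a fitted value that rests on few UMIs in the lower classes. Kif19a, a kinesin gene, showed 89.1, 140.5, 144 and 106 CPM against 0.691, 5.17, 5.45 and 0.758 and 5.08, 14.2, 3.43 and 5.20 CPM. The noncoding gene 9630013A20Rik had the largest rise of the list against precursors, from 25.6, 25.9, 14.2 and 18.6 to 1967, 1242, 1720.2 and 753 CPM in all members (6.01 ± 0.30 SE, adjusted p = 5.21e-10), and mature oligodendrocytes had 165, 275, 90.0 and 94.8 CPM.

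The other genes of the list were higher than both classes by varied amounts. Nfasc, which encodes neurofascin of nodes and paranodes, was at 2976, 3275, 3430.3 and 1554 CPM, against 186, 193, 215 and 195 in precursors and 922, 1318, 891 and 836 in mature oligodendrocytes (log2 fold changes 3.79 and 1.51). Cnksr3, a scaffold gene of kinase signalling, had log2 fold changes of 4.42 and 2.62, Tns3, the focal adhesion gene tensin 3, 2.23 and 3.16, Mpzl1 2.65 and 2.68, Chn2, a Rac GTPase-activating protein, 2.87 and 2.07, and Sirt2, a deacetylase of the oligodendrocyte cytoplasm, 2.33 and 1.74. Rras2, Rnf122 and Cemip2 had 2.27, 2.83 and 2.75 against precursors and 1.80, 1.94 and 2.36 against mature oligodendrocytes. Itpr2, the type 2 inositol trisphosphate receptor, was at 1217, 1218, 615 and 485 CPM against 55.0, 96.9, 59.1 and 71.3 in mature oligodendrocytes (3.65) and 387, 437, 493 and 559 CPM in precursors (0.87). In BALB/c the Itpr2 level of all members lay below that of precursors. The call against precursors was lost without C57J 1 (0.54, adjusted p = 0.196) and without C57J 2 (0.66, 0.149). Without BALB/c, Neu4 was called against precursors (0.58) and Lims2 against mature oligodendrocytes (0.72).

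**Figure D2:**
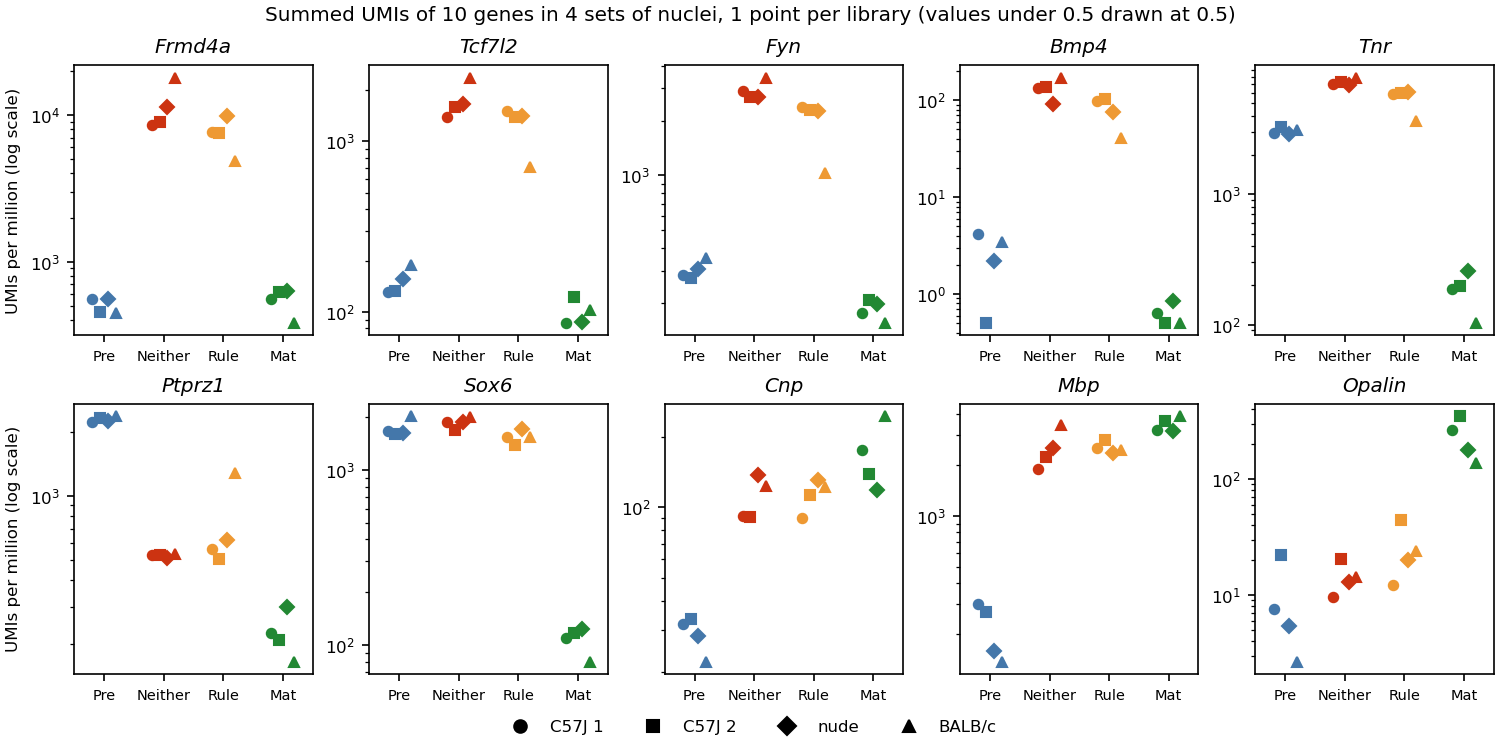
Levels (CPM, log axis) of 10 genes in precursors (Pre), newly forming nuclei that met neither other gate (Neither), all nuclei of the rule (Rule) and mature oligodendrocytes (Mat), 1 point per library. Frmd4a, Tcf7l2, Fyn, Bmp4 and Tnr peaked in the newly forming nuclei, Ptprz1 was highest in precursors, Sox6 was not called against precursors, and for Frmd4a, Tcf7l2, Fyn, Bmp4, Tnr and Ptprz1 the BALB/c triangle moved most between the Neither and Rule columns; values under 0.5 are drawn at 0.5.

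Outside the list, the genes with the largest smaller fold of both comparisons included Frmd4a (chr2:4017717-4614043), at 7673, 7497, 9847 and 4852 CPM against 556, 451, 555 and 450.1 in precursors and 559, 618, 634 and 381 in mature oligodendrocytes. Its log2 fold change was 3.87 ± 0.17 SE, adjusted p = 1.35e-10 and 3.79 ± 0.17 SE, adjusted p = 4.18e-11, and in the nuclei that met neither other gate it reached 8592, 8899, 11344 and 17974 CPM. Without predicted doublets Frmd4a was at 10093, 10493, 13236 and 5238 CPM there, so the high BALB/c value was not seen in its 16 other nuclei. Pik3r3, a regulatory subunit of phosphoinositide 3-kinase, was at 1616, 1202, 1927 and 980.1 CPM (4.06 and 3.45), Epb41l2, of the protein 4.1 family, at 1215, 1023, 1296 and 540.0 (3.80 and 3.35), and Tmem108 at 1643, 2082, 2416 and 839 (3.10 and 3.94). These 4 genes were higher in every library of the members than in any library of both other classes. The remaining protein-coding genes of the rule were Nhsl2 (2.66 and 2.62) and Man1c1, a mannosidase gene (2.80 and 2.50), besides Tcf7l2, Fyn, Mpzl1 and Cnksr3. The nuclei that met neither other gate added Bmp4, Kif19a, Rhbdl2, a rhomboid protease gene (5.58 and 4.07), and Eya2, a transcriptional cofactor and phosphatase gene (4.27 and 3.94).

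Noncoding genes were among those with the largest folds. Gm13187 was at 130.2, 245, 257 and 78.8 CPM in the members, 0.691, 6.47, 1.09 and 1.89 in precursors and 2.54, 6.14, 6.00 and 1.22 in mature oligodendrocytes (6.07 and 5.60), and Gm36988 at 193, 161, 217 and 166 against 5.53, 5.17, 6.54 and 7.20 and 2.54, 4.72, 1.71 and 3.98 CPM (4.83 and 5.66). The noncoding gene 9530059O14Rik had log2 fold changes of 4.41 and 2.78, and A930009A15Rik, annotated as protein-coding, was called against mature oligodendrocytes and not against precursors, at 96.7, 102, 136 and 72.8 against 1.27, 0.945, 0.857 and 0.765 CPM (6.54, and -0.17 against precursors). Bcas1os2 (3.09 and 2.85) is annotated within Bcas1 on the opposite strand, at chr2:170356361-170380435, and whether the counting used strand is not given in the sources used here, so its UMIs and those of the gate gene Bcas1 cannot be told apart.

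Most precursor genes lay below precursors and above mature oligodendrocytes. Of 12 genes, 9 were lower in the members than in precursors and 1, Tnr, was higher, whereas all 12 were higher than in mature oligodendrocytes, with medians of -1.27 and 2.72. The counts were the same for the nuclei that met neither other gate (-1.75 and 2.01) and without BALB/c. Ptprz1 was at 559, 504, 620.5 and 1272 CPM in all members and at 528, 527, 510.0 and 531 in those that met neither gate, against 2224, 2323, 2257 and 2362 in precursors and 225, 209.8, 301 and 165 in mature oligodendrocytes. The 4 libraries of nuclei that met neither gate were nearly equal, and the high BALB/c value of all members was not seen there. Without predicted doublets, however, Ptprz1 was at 670.3, 628, 409 and 1023 CPM in these nuclei, with BALB/c again the highest. The log2 fold change against precursors was -1.64 ± 0.23 SE, adjusted p = 4.01e-05 in all members and -2.09 ± 0.16 SE, adjusted p = 1.36e-08 in those that met neither gate.

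Megf11 (-1.81), Xylt1, which starts glycosaminoglycan chains (-1.64), Lhfpl3 (-1.57), Ntn1, the guidance cue netrin 1 (-1.53), Cacng4, an AMPA receptor auxiliary subunit (-1.42), Sox5 (-1.13), Matn4 (-1.13) and C1ql1 (-0.99) were also lower than in precursors. The other 3 were not lower. Sox6, a transcription factor of precursors, was at 1541, 1384, 1720.2 and 1548 CPM in the members, 1666, 1597, 1623 and 2024 in precursors and 109, 117, 123 and 79.7 in mature oligodendrocytes (-0.14 ± 0.15 and 3.90 ± 0.17, SE). Luzp2 was at 1456, 1238, 1271 and 1232 CPM against 1841, 1718, 1451 and 1585 in precursors (-0.32, not called). Tnr, the extracellular matrix protein tenascin-R, was at 6985, 7356, 6898 and 7894 CPM in the nuclei that met neither gate, against 2971, 3312, 2924 and 3132 in precursors and 186, 196, 255 and 102 in mature oligodendrocytes, 1.28 ± 0.19 SE, adjusted p = 6.31e-05 against precursors and 5.38 ± 0.23 SE, adjusted p = 4.67e-12 against mature oligodendrocytes. Over all members Tnr was at 5921, 6038, 6134 and 3661 CPM, with BALB/c near the precursors (0.79 and 4.95), and the call against precursors was lost without C57J 1 (0.71, adjusted p = 0.0699).

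Among genes that were not listed, the largest falls from precursors were those of Etv4, a transcription factor induced by growth factor signalling, at 17.6, 11.1, 25.2 and 49.3 against 138, 208, 156 and 110.3 CPM (-2.09 ± 0.31 SE, adjusted p = 7.20e-05), Gm2164 (-2.05), Emid1 (-2.01), Gm3764 (-2.0) and Gpc5, a glypican (-1.85). Among nuclei that met neither gate, Etv4 was at 12, 2.93, 32.7 and 2.86 CPM (-3.92), and Epas1, a hypoxia-regulated transcription factor (-3.71), and Mmp15, a membrane-bound metalloproteinase (-3.51), joined Gm2164 (-3.71) and Emid1 (-3.67). Among the rises were Prom1, which encodes the membrane protein prominin 1, at 111, 84.0, 95.8 and 61.3 against 1.38, 5.17, 1.09 and 0 CPM (6.00), and the noncoding 4930420G21Rik (4.93), which was higher still in mature oligodendrocytes (-1.05).

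Most myelin genes lay above precursors and below mature oligodendrocytes. Of 17 tested, 16 were higher in all members than in precursors and 14 were lower than in mature oligodendrocytes (medians 2.17 and -1.31). Among nuclei that met neither gate 11 were higher and 1, Pmp22, lower than in precursors, and 15 were lower than in mature oligodendrocytes (1.53 and -2.79). Mbp was at 1884, 2229.8, 2504 and 3426 CPM in those nuclei, against 299, 270.3, 158 and 136 in precursors and 3231, 3647, 3181 and 3876 in mature oligodendrocytes, 3.59 ± 0.25 SE, adjusted p = 4.93e-09 against precursors. Its difference from mature oligodendrocytes was -0.44 ± 0.22 (SE) and not called, and without predicted doublets it was -0.71 ± 0.24 (SE) and called, with 2368, 2661, 2958 and 1998 CPM in the nuclei that met neither gate. The list then had 12 of 17 genes higher than in precursors and none lower, and 15 lower than in mature oligodendrocytes.

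Gjc3, a connexin gene, was the myelin gene higher in the members than in mature oligodendrocytes, at 557, 489, 745 and 1211 CPM in the nuclei that met neither gate against 349.7, 379, 265 and 496 CPM (0.97 ± 0.16 SE, adjusted p = 1.92e-04). Cldn11, the tight junction protein of myelin, and Cnp lay midway, with 2.67 and 1.99 against precursors and -1.12 and -0.65 against mature oligodendrocytes. The 5 myelin genes not called against precursors in the nuclei that met neither gate included late ones. Opalin, a late myelin membrane protein, was at 9.64, 20.5, 13.1 and 14.3 CPM against 7.60, 22.0, 5.45 and 2.65 in precursors and 262, 346, 177 and 138 in mature oligodendrocytes (0.81, not called, and -4.04), and Mal at 48.2, 111, 39.2 and 85.7 CPM against 58.1, 86.7, 37.1 and 27.7 and 651, 681, 404 and 852 (0.56, not called, and -3.19). Aspa, which breaks down N-acetylaspartate, was higher than in precursors (1.53) and far below mature oligodendrocytes (-3.83). Over all members the folds against precursors of Opalin (1.81), Mal (1.59) and Aspa (3.34) were larger, and the nuclei that also met the mature gate were part of that sum. With all members, the calls against mature oligodendrocytes of Cnp (-0.61) and Gjc3 (0.61) were lost without C57J 1 (-0.46 and 0.65), that of Cnp also without C57J 2 (-0.68) and BALB/c (-0.45), and that of Gjc3 without nude (0.38).

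The largest deficits against mature oligodendrocytes in all members were in Opalin (-3.03), C030029H02Rik (-2.58), Synpr (-2.38), Ptgds, the prostaglandin D synthase gene (-2.22), and D7Ertd443e (-2.11). When nuclei that met another gate were left out they were in Carns1, which makes carnosine (-4.34), Gm48508 (-4.09), Opalin, Aspa and Gm5535 (-3.83). The largest excess over mature oligodendrocytes, besides genes already named, was that of Ppfibp1, of the liprin family, at 887, 897, 883 and 485 against 14.9, 17.5, 12.9 and 7.95 CPM (5.93).

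**Figure D3:**
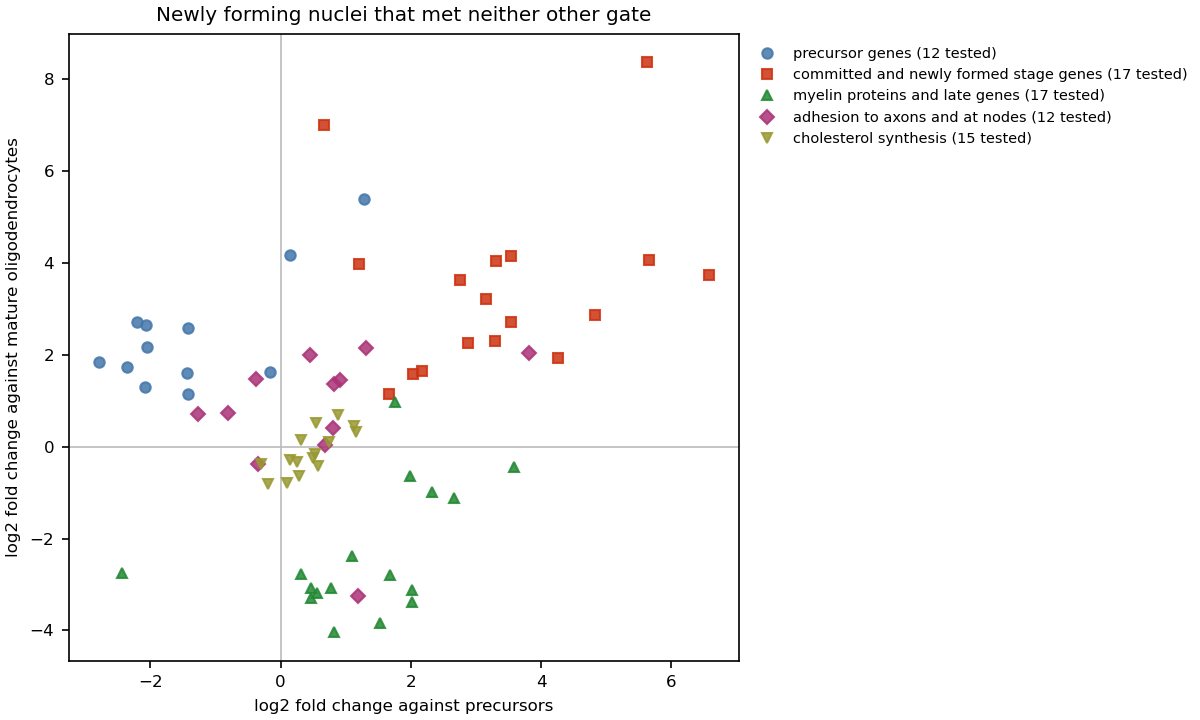
Log2 fold change of newly forming nuclei that met neither other gate against precursors (horizontal) and against mature oligodendrocytes (vertical) for the tested genes of 5 lists, 1 point per gene. Stage genes sit in the upper right, precursor genes mostly in the upper left, myelin genes mostly in the lower right, and cholesterol genes near the centre.

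Lipid synthesis genes were called in smaller shares than myelin genes. For this and the lists that follow, the shares over all genes tested with all members were 10.1% higher and 9.61% lower against precursors. Against mature oligodendrocytes they were 10.4 and 8.33%. With the nuclei that met neither gate these shares were 9.06 and 10.6%, and 10.2 and 10.9%. Of 15 cholesterol synthesis genes, 5 were higher in all members than in precursors and none lower, and 2 were lower than in mature oligodendrocytes (medians 0.48 and -0.17). Among nuclei that met neither gate 3 were higher and 0 lower than in precursors, and 0 were higher and 2 lower than in mature oligodendrocytes. The medians of the nuclei that met neither gate were 0.49 and -0.26. Of 13 fatty acid and galactolipid genes, 7 were higher than in precursors, 1 higher and 5 lower than in mature oligodendrocytes. Among nuclei that met neither gate 4 were higher than in precursors, and 1 was higher and 9 lower than in mature oligodendrocytes. Their medians against precursors and mature oligodendrocytes were 0.62 and -0.45 in all members, and 0.40 and -0.83 in those that met neither gate. The 4 higher than in precursors included 2 enzymes of galactolipids. Ugt8a, which makes galactosylceramide, was at 345, 304, 458 and 617 CPM in those nuclei against 112, 133, 113 and 141 in precursors (1.79), and Fa2h, the fatty acid hydroxylase, at 255, 202, 307 and 314 against 54.6, 75.0, 62.1 and 54.2 CPM (2.18). Elovl7, a fatty acid elongase, was at 253, 260.4, 399 and 446 against 214, 283, 281 and 360.3 CPM (0.26 ± 0.14, SE, not called), from 21.4, 28.5, 39.2 and 30.3 CPM in precursors (3.57). Elovl6 was higher than in mature oligodendrocytes (0.62), a call that with all members (0.55) was lost without C57J 1 (0.62), nude (0.51) or BALB/c (0.46). In the nuclei that met neither gate the Elovl6 call was lost with predicted doublets removed. Of the 13 genes, 0 were then higher and 8 lower than in mature oligodendrocytes.

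Of 14 lineage transcription factors tested, 7 were higher and 3 lower than in precursors, and 6 higher and 2 lower than in mature oligodendrocytes. The counts were 8 and 3, and 5 and 2, when nuclei that met another gate were left out. With predicted doublets also removed they were 6 and 3, and 5 and 2. The medians against precursors and mature oligodendrocytes were 0.63 and 0.21 in all members and 0.86 and -0.07 in those that met neither gate. Nkx2-2, a homeobox factor of differentiating precursors, was at 79.5, 90.7, 39.2 and 82.9 CPM in those nuclei, 27.6, 31.0, 26.2 and 27.7 in precursors and 8.58, 11.3, 6.86 and 7.80 in mature oligodendrocytes (1.46 ± 0.20 SE, adjusted p = 2.30e-05, and 3.18 ± 0.22 SE, adjusted p = 2.30e-09). Zfp488 (1.31 and 2.92) and Sox8 (0.68 and 0.80) followed the same course, so that 3 factors were higher than in both classes. With all members Sox8 was not called against precursors (0.45) except without BALB/c (0.71), and the Zfp488 call against precursors (0.80) was lost without C57J 1 (0.59), C57J 2 (0.82) or nude (0.75). Myrf, the master factor of myelin genes, was at 94.0, 96.6, 98.1 and 103 CPM against 11.1, 15.5, 8.72 and 5.30 and 156, 136, 116 and 122 CPM (3.45, and -0.43, not called). St18 (4.95, and -0.43, not called) and Zeb2, a repressor of inhibitory signals (1.97, and 0.25, not called), were higher than in precursors with no call against mature oligodendrocytes. Olig1 (-1.21) and Olig2 (-0.93), which specify the lineage, were lower than in precursors, and Olig2 was higher than in mature oligodendrocytes (0.81).

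Of 7 Wnt pathway genes tested, 1 was higher than in precursors, and 1 was higher and 2 lower than in mature oligodendrocytes. Among nuclei that met neither gate 1 was higher and 1 lower than in precursors, and 1 higher and 3 lower than in mature oligodendrocytes. Axin2, a target and inhibitor of the pathway, was at 33.7, 17.6, 26.2 and 14.3 CPM there, against 10.5, 7.56, 10.3 and 8.26 in mature oligodendrocytes (1.40) and 13.1, 12.9, 14.2 and 20.1 in precursors (0.58, not called). Daam2, a formin that acts in Wnt signalling, was lower than in mature oligodendrocytes, at 36.1, 29.3, 19.6 and 109 against 387, 304, 401 and 597 CPM (-3.03). Over all members the Axin2 call against mature oligodendrocytes (0.96) was lost without C57J 1 (0.78), C57J 2 (0.92) or nude (0.92). The list medians were 0.04 and -0.16 in all members, -0.17 and -0.01 in those that met neither gate. With predicted doublets removed from the latter nuclei, 0 of the 7 genes were higher than in mature oligodendrocytes, so the Axin2 call was lost. Over all genes tested, 10.1% were higher and 9.61% lower than in precursors, and 10.4 and 8.33% than in mature oligodendrocytes. Counts as small as those of this list are therefore a description only.

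Of 14 cytoskeletal genes, 10 were higher in all members than in precursors and none lower, and 4 were higher and 5 lower than in mature oligodendrocytes. Of the same genes, 9 were higher than in precursors, and 4 higher and 4 lower than in mature oligodendrocytes, in the nuclei that met neither gate. Map1b, a microtubule-associated protein of growing processes, was at 1258, 1261, 1321 and 2337 CPM there, against 294, 249.6, 288 and 239 and 309, 267, 336 and 251 CPM (2.55 ± 0.19 SE, adjusted p = 1.36e-08, and 2.43 ± 0.19 SE, adjusted p = 1.42e-08). Without predicted doublets Map1b was at 1474, 1328, 1521 and 1096 CPM in these nuclei, and BALB/c turned from the highest library to the lowest. Cyfip2 (1.64 and 2.56) and Wasf1 (1.30 and 1.32), both of the WAVE complex that builds branched actin, and Map2 (0.56 and 1.27) were also higher than in both classes, and these 4 genes were the cytoskeletal genes with that pattern. Map2 was not called against precursors with all members (0.29). The list medians were 0.93 and -0.18 in all members, 0.93 and -0.17 in those that met neither gate.

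Of 12 adhesion genes, 4 were higher and 2 lower in all members than in precursors, and 8 higher and 1 lower than in mature oligodendrocytes. The counts became 7 and 2, and 8 and 1, in the nuclei that met neither gate. Cadm2, a synaptic cell adhesion molecule, was at 6927, 6414, 7107 and 10517 CPM in those nuclei, against 3314, 3263, 3018 and 3122 in precursors and 1919, 1844, 1923 and 1436 in mature oligodendrocytes (1.31 ± 0.17 SE, adjusted p = 1.49e-05, and 2.14 ± 0.18 SE, adjusted p = 3.25e-08). Without predicted doublets Cadm2 was at 7846, 6923, 8298 and 4421 CPM in these nuclei, and BALB/c turned from the highest library to the lowest. Cadm1 (0.82 and 1.35), Cadm3 (0.91 and 1.46) and Sema4d, a membrane semaphorin (3.82 and 2.05), were likewise higher than in both. Nrcam, a partner of neurofascin, was higher than in mature oligodendrocytes (1.99). Lrrc4c (-1.27 and 0.71) and Nlgn3, neuroligin 3 (-0.81 and 0.72), lay between precursors and mature oligodendrocytes. With all members Cadm1 (0.43) and Cadm3 (0.45) were not called against precursors, and Cadm1 was when BALB/c was left out (0.56). The list medians were 0.40 and 0.99 in all members, 0.74 and 1.04 in those that met neither gate. With predicted doublets removed from the latter nuclei, 4 genes were higher and 3 lower than in precursors. Against mature oligodendrocytes, 9 were then higher and 1 lower.

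Many cells of this stage are known to die in the adult brain. Of 7 tested genes of cell death and survival, 3 were higher and 1 lower than in precursors, and 1 higher and 1 lower than in mature oligodendrocytes. Without nuclei that met another gate they were 2 and 1, and 1 and 1. Tfeb, a transcription factor that promotes death of premyelinating cells, was higher than in precursors in those nuclei, at 74.7, 93.6, 98.1 and 143 against 17.3, 24.6, 27.3 and 15.2 CPM (2.43). The survival gene Bcl2 was lower than in precursors (-1.28), and Bcl2l1, its relative, was at 69.9, 58.5, 85.0 and 71.4 CPM against 373, 211, 319 and 566 CPM in mature oligodendrocytes (-2.33). The list medians were 0.33 and -0.03 in all members, 0.13 and -0.20 in those that met neither gate. With 10.1 and 9.61% of all genes higher and lower than in precursors, and 10.4 and 8.33% than in mature oligodendrocytes, these small counts are a description only.

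The cell cycle genes Mki67 and Top2a were at or near 0 UMIs. Mki67 had 0, 0, 0 and 1 UMIs and Top2a 2, 0, 0 and 0 UMIs over all members of the 4 libraries, and only 3 of the 11 genes were high enough to test. Ccnd1, the cyclin of cell cycle entry, was at 3.52, 11.1, 10.1 and 27.1 CPM against 45.6, 45.3, 51.2 and 50.4 in precursors (-1.48 ± 0.30 SE, adjusted p = 0.00127), and Ccnd2 was also lower in all members (-0.86), though not called in the nuclei that met neither gate (-0.61) or with C57J 1 (-0.88), C57J 2 (-0.78) or BALB/c (-0.87) left out. Of 9 cytokine receptor and interferon genes tested, 2 were higher and 1 lower than in precursors, and 1 was higher than in mature oligodendrocytes. Without nuclei that met another gate they were 2 and 1, and 2. Ifnar2, a subunit of the type I interferon receptor, was at 101, 73.2, 65.4 and 94.3 CPM in those nuclei, 25.6, 32.3, 31.6 and 32.6 in precursors and 15.6, 13.7, 24.9 and 16.2 in mature oligodendrocytes (1.57 ± 0.21 SE, adjusted p = 1.83e-05, and 2.42 ± 0.21 SE, adjusted p = 6.09e-08). Its partner Ifnar1 was not called in either comparison (-0.31 and -0.31). The list medians were -0.05 and 0.14 in all members, -0.00 and -0.06 in those that met neither gate. With predicted doublets removed from the latter nuclei, 1 of 8 genes was higher and 0 lower than in precursors. Against mature oligodendrocytes, 1 was then higher. Since 10.1 and 9.61% of all genes were higher and lower than in precursors, and 10.4% higher than in mature oligodendrocytes, the counts of this list are a description only.

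Fewer genes were lower in the members than in both classes than were higher than in both, 62 against 268, and without C57J 1, C57J 2, nude or BALB/c the 62 became 17, 24, 38 and 100. The 5 with the largest smaller fall in all members were Abca8b, a lipid transporter (-0.80 and -1.08), Dtna (-0.79 and -0.92), Slc1a3, a glutamate transporter best known from astrocytes (-0.78 and -0.84), Adam9 (-0.80 and -0.73) and Sesn1 (-0.65 and -0.81). When nuclei that met another gate were left out they were Creb5 (-1.78 and -3.34), Ptn, the growth factor pleiotrophin (-1.58 and -1.96), Hepacam (-1.53 and -1.88), Pstpip2 (-1.50 and -3.05) and Samd4 (-1.57 and -1.46). With all members Creb5 (-0.01) and Pstpip2 (0.05) were not called against precursors, and the calls of Adam9 and Sesn1 against precursors were lost without C57J 1 (-0.61 and -0.63), that of Sesn1 also without C57J 2 (-0.53) or nude (-0.54). Ptn was at 169, 173, 170.0 and 140.0 CPM there, 468, 501, 425 and 583 in precursors and 649.6, 663, 632 and 619.9 in mature oligodendrocytes. Summed astrocyte markers, of which Slc1a3 is 1 of 6, were lower in these nuclei (456 to 728 CPM) than in precursors (1085 to 1719 CPM) and mature oligodendrocytes (869 to 1369 CPM) in every library. The part of astrocyte RNA in these falls was not tested.

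The members were then split into an Enpp6 side (more Enpp6 than Gpr17 UMIs) and a Gpr17 side (the reverse), with ties left out. The Enpp6 side held 55.0, 63.7, 68.6 and 48.9% of all members in the 4 libraries and 47.9, 61.1, 68.4 and 67.4% of those that met neither other gate. The split went with the other gates, since 159 of the 172 members that met the mature gate were on the Enpp6 side and 136 of the 141 that met the precursor gate on the Gpr17 side, both numbers counting the 3 that met both. With all members, 452 of 4574 genes were higher on the Enpp6 side (9.88%) and 384 lower (8.40%). Among the nuclei that met neither gate, 203 of 2514 were higher (8.07%) and 131 lower (5.21%), and 306 of these 334 had been called in the same direction with all members. Without C57J 1 or BALB/c, 545 and 483 genes were called with all members and 126 and 219 with the nuclei that met neither gate.

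In the nuclei that met neither gate, the Enpp6 side had lower levels of precursor genes and higher levels of stage and myelin genes. Of 10 precursor genes tested 6 were lower and none higher on it (median -1.44, against -0.05 over all genes), of 15 stage genes 9 were higher and none lower, and of 6 myelin genes 5 were higher and none lower. Over all members the counts were 9 of 12 lower, 12 of 17 higher and 13 of 13 higher. Megf11 was at 0, 34.2, 0 and 43.6 CPM on the Enpp6 side of the 4 libraries and at 239, 201, 318 and 297 on the Gpr17 side (-3.47 ± 0.50 SE, adjusted p = 7.36e-04). Ptprz1 (-1.75), Lhfpl3 (-1.83), Sox5 (-1.52), Xylt1 (-1.25) and Cacng4 (-2.45) were also lower on the Enpp6 side, and Sox6 was not called (-0.43). The genes with the largest differences in that direction further included Adam12 (-2.84), Chst11, a chondroitin sulfotransferase (-2.81), Vxn (-2.57), Stk32a (-2.38) and Mir9-3hg (-2.36). Cspg4 and Vcan, of the precursor gate, and Mag, of the mature gate, were also among the 334, but these genes chose the nuclei and are read as no result here. Without predicted doublets, 110 of 1373 genes were higher and 102 lower on the Enpp6 side, where BALB/c had 9 and 6 nuclei, and 6 of 9 precursor genes were lower, 5 of 11 stage genes higher and 4 of 4 myelin genes higher.

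Tcf7l2 was at 2073, 1885, 2335 and 3212 CPM on the Enpp6 side and 284, 1032, 431 and 460.2 on the Gpr17 side (2.33 ± 0.36 SE, adjusted p = 0.00102), and Frmd4a at 14411, 11221, 16497 and 24400.0 and 853, 4588, 1798 and 1544 CPM (3.27 ± 0.43 SE, adjusted p = 6.71e-04). The BALB/c values rest on 43 nuclei, of which 27 were predicted doublets. In the other 16, both sides and ties together, BALB/c held 719 CPM of Tcf7l2 and 5238 of Frmd4a, the lowest of the 4 libraries for both genes. Cnksr3 (3.20), Rnf122 (3.48), Nfasc (2.66), 9630013A20Rik (2.53), Kif19a (1.52), Mpzl1 (1.12), Tns3 (1.00) and Chn2 (0.94) were higher on the Enpp6 side too. Bmp4 was not called, at 93.6, 107, 124 and 113 CPM on the Enpp6 side and 162, 201, 18.7 and 239.7 on the Gpr17 side (-0.50 ± 0.37, SE). Pik3r3 (4.05), Gm36988 (3.77), Pde9a, a cyclic GMP phosphodiesterase (3.56), Smad7, an inhibitor of TGF-beta and BMP signalling (3.42), Gm13187 (3.32) and Cdk18 (3.24) had the largest differences toward the Enpp6 side. With all members, the calls of Tns3 (1.00) and Chn2 (1.17) were lost without C57J 1 (0.89 and 1.02) or nude (0.84 and 1.15), and that of Mpzl1 (1.25) without C57J 1 (1.10).

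Mbp was at 2840.3, 2689, 3574 and 4612 CPM on the Enpp6 side and 498, 1276, 599 and 594 on the Gpr17 side of the nuclei that met neither gate (2.37 ± 0.34 SE, adjusted p = 7.36e-04). Cldn11 (2.33), Gjc3 (1.56) and Cnp (1.44), and the factors Myrf (1.19), St18 (1.18) and Zfp536 (1.50), had the same direction. So had the lipid enzymes Elovl7 (2.27), Ugt8a (1.68) and Fa2h (1.32), the process gene Map1b (1.71) and the adhesion genes Cadm2 (1.73) and Sema4d (2.25). The BALB/c levels of Mbp include those of predicted doublets. In its 16 other nuclei, both sides and ties together, Mbp was at 1998 CPM. Over all members, the largest differences toward the Enpp6 side were those of Anln (5.11), Tmem63a (4.72), Prr5l (4.19), Cyp2j12 (4.90) and the noncoding 4930420G21Rik (5.71), A230001M10Rik (4.93) and Gm19500 (4.14), and toward the Gpr17 side those of Emid1 (-6.20), Etv4 (-5.44), Pdgfra (-4.87), Zfp36l1 (-4.57) and Plpp4 (-4.45). Of these 12, none was high enough to test in the nuclei that met neither gate. The calls of Gjc3 (1.24) and Cadm2 (1.24) with all members were lost without C57J 1 (1.15 and 1.12) or nude (1.08 and 1.11).

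**Figure D4:**
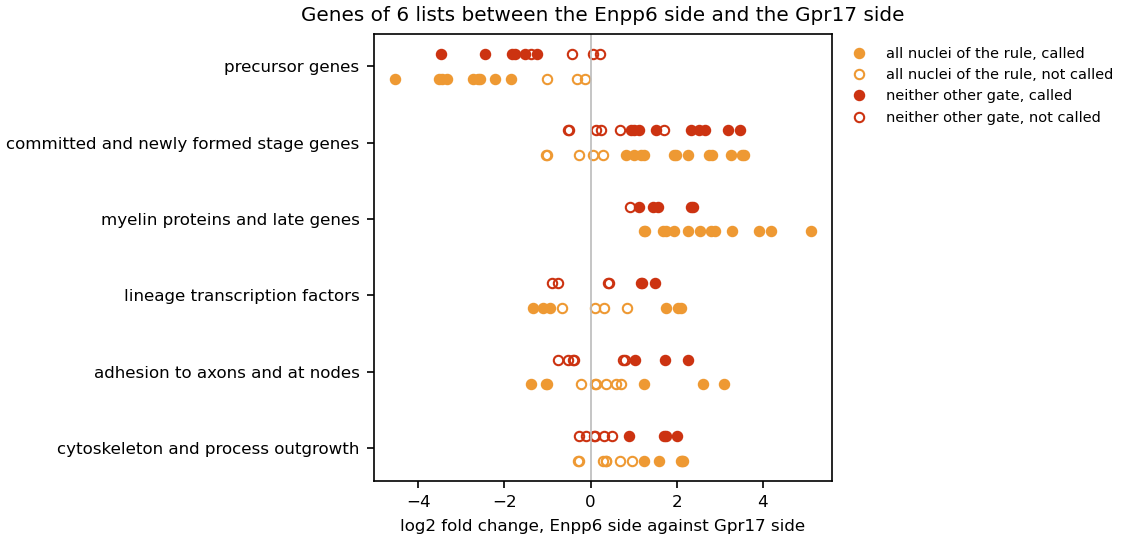
Log2 fold change between the Enpp6 side and the Gpr17 side (horizontal) for the tested genes of 6 lists (rows), 1 point per gene, filled where called, for all nuclei of the rule and for the nuclei that met neither other gate. Precursor genes that were called lie left of 0 and myelin genes that were called right of 0 in both sets.

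The study compares mouse backgrounds, and the members of nude and BALB/c were tested against those of both C57J libraries. Of 7485 genes 3 were called (0.0401%) with all members, and 3 of 5798 (0.0517%) with the nuclei that met neither other gate, while 819 and 548 genes had an unadjusted p under 0.05. The gene called in both was 1500004A13Rik, a noncoding gene at 127, 146, 5.04 and 12 CPM in all members (-3.56 ± 0.35 SE, adjusted p = 0.00537), against 101, 137, 15.3 and 8.34 in precursors and 222, 298, 11.1 and 11.0 in mature oligodendrocytes. Adam18 was at 82.7, 75.1, 0 and 3.61 CPM (-4.52 ± 0.48 SE, adjusted p = 0.00606), and in the nuclei that met neither gate at 108, 81.9, 0 and 8.57 CPM (-3.87, adjusted p = 0.0773). Gm19299, a noncoding gene, had 1 UMI in both C57J libraries and 222 in nude and BALB/c, a ratio of levels of 122. The exact 95% interval of that ratio was 21.6 to 4831 and covers counting error only. In the nuclei that met neither gate it had 1 and 38 UMIs, a ratio of 57.2 with an interval of 9.66 to 2317. Gm19299 was found in precursors of nude and BALB/c as well, at 160.3 and 194 CPM, and in their mature oligodendrocytes at 3.43 and 0.765 CPM.

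Pld2, a phospholipase D, was, in the nuclei that met neither gate, at 2.41, 8.78, 85.0 and 94.3 CPM (4.06 ± 0.55 SE, adjusted p = 0.0408) and Mink1, a kinase of the Ste20 family, at 69.9, 73.2, 359.6 and 309 CPM (2.26 ± 0.26 SE, adjusted p = 0.0251). Both were higher in nude and in BALB/c than in either C57J library, and so they were without predicted doublets, at 4.30, 8.15, 109 and 97.4 CPM of Pld2 and 73.0, 69.3, 443 and 219 of Mink1. With the doublets removed from these nuclei edgeR called 0 of 3664 genes, and 201 had an unadjusted p under 0.05. The folds were then 3.88 for Pld2 and 2.23 for Mink1, both with an adjusted p of 0.329, and 1500004A13Rik was not called either. With all members Mink1 was called without nude (1.04) or BALB/c (1.90) and Pld2 without C57J 2 (3.29). The number of genes called by edgeR turned on single libraries. Without C57J 1, C57J 2, nude or BALB/c, it was 58, 70, 912 and 41 with all members, and 11, 0, 280 and 0 with the nuclei that met neither gate, of which the comparisons with 0 calls had 362 and 415 genes at an unadjusted p under 0.05. The list medians moved with the makeup of the members. Precursor genes had a median log2 difference of 0.90 between backgrounds in all members and of 0.10 in the nuclei that met neither gate, and stage genes -0.49 and 0.23, with no gene of either list called.

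Whether the background effect differed between the members and another class was tested by the interaction of class and background. Against precursors, 2 of 12023 genes were called (0.0166%) with all members and 2 of 11428 (0.0175%) with the nuclei that met neither gate, and none was shared. Against mature oligodendrocytes, 15 (0.125%) and 25 (0.219%) were called, of which 4 were shared. With predicted doublets removed from all members, or with nuclei thinned to 2000 UMIs, edgeR called 0 genes in both interactions, and 726 and 799 genes without doublets and 532 and 575 after thinning had an unadjusted p under 0.05. With predicted doublets removed from the nuclei that met neither gate, edgeR also called 0 in both, with 599 and 610 genes at an unadjusted p under 0.05. DESeq2 called 0 against mature oligodendrocytes with all members, with 303 at an unadjusted p under 0.05. Mitf, a transcription factor of the MiT family to which Tfeb belongs, was at 459, 493, 151 and 169 CPM in all members and 477, 594, 183 and 223 in those that met neither gate, against 104, 105, 104 and 112 in precursors and 178, 213, 113 and 158 in mature oligodendrocytes. Its level in the members of nude and BALB/c was below that of both C57J libraries in each set, while precursors ranged from 104 to 112 CPM. The effect was -1.64 ± 0.26 SE, adjusted p = 0.0298 relative to precursors in all members and -1.40 (adjusted p = 0.0756) in those that met neither gate. Chrm3, a muscarinic acetylcholine receptor, was at 201, 148, 95.8 and 53.5 CPM in all members against 144, 137, 220.2 and 179 in precursors (-1.87 ± 0.29 SE, adjusted p = 0.0298, and -1.83, adjusted p = 0.0756, in those that met neither gate). The Mitf call was lost without C57J 1 (-1.75) or C57J 2 (-1.63), and the Chrm3 call without C57J 1 (-1.70), C57J 2 (-2.04) or BALB/c (-1.56). Itpr2 had an adjusted p of 0.0683 in the same test (-1.56) and was called without nude (-1.81) or BALB/c (-1.28).

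**Figure D5:**
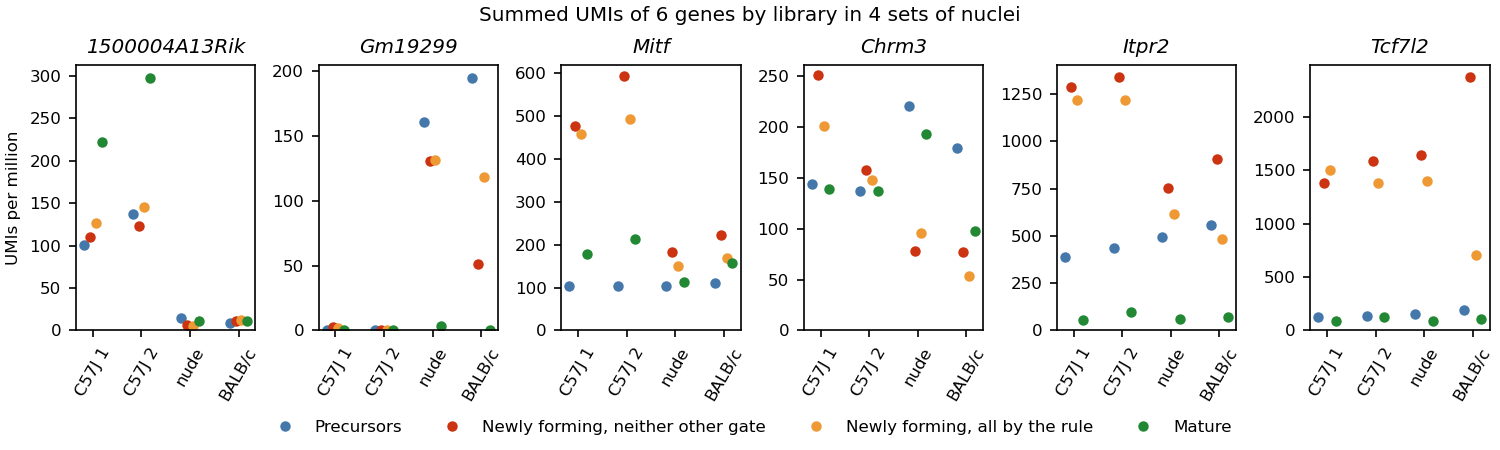
Levels (CPM, linear axis from 0) of 6 genes in the 4 libraries, for precursors, newly forming nuclei that met neither other gate, all nuclei of the rule and mature oligodendrocytes. 1500004A13Rik and Gm19299 split the backgrounds in several classes, Mitf, Chrm3 and Itpr2 were lower in the newly forming nuclei of nude and BALB/c than in those of C57J, and Tcf7l2 in all nuclei of the rule was lowest in BALB/c; 27 of the 43 BALB/c nuclei that met neither other gate were predicted doublets.

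Genes that the study names in its precursors or oligodendrocytes were not called between backgrounds in the members, in 11 tested with all members (median 1.45) and 8 with the nuclei that met neither gate (0.75), and since the study chose them on these libraries their direction is no independent evidence. Itga9, an integrin, was at 106, 58.5, 203 and 229 CPM in the nuclei that met neither gate, with nude and BALB/c above both C57J libraries, as in precursors (209, 229, 401 and 469 CPM), and 1.44 with an adjusted p of 0.192. Lpcat2, a lysophospholipid acyltransferase, was at 94.0, 99.5, 39.2 and 22.9 CPM, with nude and BALB/c below, as in precursors (178, 206, 46.9 and 40.9 CPM), and -1.70 with an adjusted p of 0.197. Ndst4, a heparan sulfate sulfotransferase, was at 55.4, 64.4, 78.5 and 126 CPM and Zcchc24 at 38.5, 38.0, 85.0 and 82.9 CPM, each above both C57J libraries in nude and in BALB/c (0.91 and 1.18). Ninj2 was at 38.5, 102, 26.2 and 8.57 CPM (-2.18) and Fcho1 at 26.5, 8.78, 45.8 and 54.3 CPM (1.52). With all members, calls appeared when nude was left out for Itga9 (2.05), Lpcat2 (-1.30), Ndst4 (2.37), Zcchc24 (2.44), Ninj2 (-1.04) and Fcho1 (2.01), and when C57J 1 was left out for these genes other than Lpcat2 (2.13, 1.85, 2.20, -1.77 and 3.03). Ndst4 (2.07) and Zcchc24 (1.82) were also called without C57J 2, and Itga9 without BALB/c (1.28).

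Markers of other cell types were also found in the members, as in the rest of the lineage. The 7 neuron markers summed to 1008 to 1945 CPM in the members, against 4680 to 5124 CPM in the nuclei outside the lineage, and to 1396 to 2180 CPM in precursors. The 5 microglia markers summed to 63.7 to 101 CPM, against 78.3 to 100.3 CPM in other nuclei, and the 6 vascular and ependymal markers to 2.21 to 9.02 CPM with Cldn5 at 0. The 5 neuroblast markers summed to 80.6 to 144 CPM, against 145 to 203 CPM in precursors. None of these sums was higher in the members of every library than in precursors and mature oligodendrocytes of the same library, and their part in the gene differences was not tested.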

How the data were processed

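Single-nucleus RNA was measured with 10x Chromium 3' libraries of mouse lateral septum, 2 from C57J, 1 from nude and 1 from BALB/c mice. UMIs per gene and nucleus were counted on mm10 with Cell Ranger 7.0.1 by the authors, and the deposited matrices hold these raw counts. With C57J 1 first, then C57J 2, nude and last BALB/c, they held 17025, 14092, 14697 and 12558 barcodes and 102939576, 72912922, 82169638 and 125998527 UMIs. Whether intronic reads or strand were used in the counting is not given in the sources used here. Here, nuclei with 200 to 6000 genes and under 2% mitochondrial UMIs were kept (14836, 14074, 14670 and 12080). These are 3 of the limits in the study's methods, and its other limits were not applied. A precursor held at least 2 Pdgfra UMIs and 0.1% of its UMIs from Pdgfra, Cspg4 and Vcan, and a mature nucleus at least 2 UMIs of Mog and Mag together, 2 of Mobp and 0.1% from the 3. Neither was selected by the rule, and 16 nuclei that met both gates went in neither class. Scrublet in scanpy 1.11.5 scored the nuclei, and those with the highest scores were taken as predicted doublets. Their share per library, 9.35 to 11.9%, was set beforehand at 0.8% per 1000 nuclei kept and is not a measured rate. Predicted doublets were kept and removed only in an alternative. UMIs were summed per library and class and tested with edgeR 4.0.16 (filterByExpr, TMM, glmQLFit, glmQLFTest; R 4.3.3), with the library as a term wherever classes or sides of the same pool were compared, since their nuclei come from the same mice. A call needs an adjusted p below 0.05 and a log2 fold change beyond 0.5. Fold changes are log2 and errors are standard errors. The tests were tried on simulated counts with known changes. Alternatives were DESeq2 1.42.0, its size factors in edgeR, no filter, a stricter rule (3 UMIs, 3 UMIs and 0.2%), removal of nuclei that met another gate, removal of predicted doublets, thinning of nuclei with at least 2000 UMIs to that depth, each library left out, and no library term. After thinning, nuclei were gated again for the shares only, and gene tests kept the classes of the full depth. Further alternatives on the nuclei that met neither other gate, removal of their predicted doublets among them, and thinning joined with that removal, were chosen after seeing the data. Members, gene lists and tests were chosen with earlier results of these data known. Genes were named if on a list, or, with non-overlapping libraries and at least 50 CPM in every library of the higher class, if among the 5 largest called in each direction against precursors and against mature oligodendrocytes, the 15 with the largest smaller fold above both classes or the 5 below both. For sides the 8 largest called in each direction were named, and for backgrounds and interactions the 5 largest called in each direction, or the 5 of smallest p where fewer than 3 were called. Gene positions are from GENCODE vM21, which held 32235 of 32285 gene IDs, and promoters from RefSeq on GRCm38.p6. Results for 2 genes of the lists are not reported here. Intervals of shares and ratios are exact 95% intervals of counting error.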

Additional observations from a re-analysis of the deposited data

Results flagged for a closer look

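The background effect, nude and BALB/c against both C57J libraries, differed between newly forming oligodendrocytes and another class for the genes below by edgeR's interaction test, and each value is the log2 effect in newly forming oligodendrocytes minus that in the other class.
Against precursors, with all nuclei of the rule, these were Mitf (-1.64 ± 0.26 SE, adjusted p = 0.0298) and Chrm3 (-1.87 ± 0.29 SE, adjusted p = 0.0298), with effects of 0.11 and 0.54 in precursors and differences of -1.40 and -1.83 in the nuclei that met neither other gate.
With those nuclei they were Mink1, a Ste20 family kinase (2.29, adjusted p = 0.00464), and Ntng1, the membrane protein netrin G1 (-2.16, adjusted p = 0.0308), with 1.37 and -1.45 over all nuclei of the rule. Without predicted doublets the difference of Ntng1 over all nuclei of the rule was 0.0089.

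Against mature oligodendrocytes, with all nuclei of the rule, the differences were positive for the heparan sulfatase gene Sulf1 (2.85, adjusted p = 0.0219), the Notch target Hes5 (2.70, adjusted p = 0.036), the netrin gene Ntn1 (2.68, adjusted p = 0.036), Gsap (2.58, adjusted p = 0.036) and Olfm2 (2.54, adjusted p = 0.0375).
For these genes they were 1.61, 2.57, 1.03, 0.84 and 0.92 in the nuclei that met neither other gate.
They were negative for Prtg (-1.49, adjusted p = 0.0375), the unconventional myosin Myo5b (-1.84, adjusted p = 0.0219) and the collagen Col23a1 (-3.08, adjusted p = 0.0219), with -1.53, -1.74 and -4.31 in the nuclei that met neither other gate.

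With the nuclei that met neither other gate, the differences from mature oligodendrocytes were positive for the phospholipase D gene Pld2 (4.32, adjusted p = 0.00527), the G protein regulator Rgs9 (3.37, adjusted p = 0.00882), Prom1 (2.81, adjusted p = 0.00443), the phosphatase subunit Ppp1cc (2.74, adjusted p = 0.0176) and the ubiquitin ligase Rnf122 (2.45, adjusted p = 0.00202), against 2.48, 2.42, 0.93, 2.00 and 0.89 over all nuclei of the rule.
They were negative for Col27a1 (-2.24, adjusted p = 0.0175), Zfp804b (-2.39, adjusted p = 0.0185), the phosphodiesterase Pde3a (-2.44, adjusted p = 0.0185), Col23a1 (-4.31, adjusted p = 0.00527) and the adhesion molecule Sdk2 (-4.67, adjusted p = 0.0176), against -1.81, -1.10, -0.74, -3.08 and -1.34 over all nuclei of the rule.
Over all nuclei of the rule without predicted doublets, the differences of Prom1 (-0.35), Rnf122 (-0.49) and Sdk2 (0.14) had the opposite sign.
Of the 43 BALB/c nuclei that met neither other gate 27 were predicted doublets, and with such nuclei removed none of the genes called with that set was called, of which Prom1 was at 1.43, Rnf122 at 1.01, Mink1 at 2.18 and Ntng1 at -0.91.
Over all nuclei of the rule, the named calls of both interactions were lost when C57J 1 or C57J 2 was left out, while the differences stayed near their values, as for Ntn1 (2.45 and 2.67) and Sulf1 (2.39 and 3.23). Without BALB/c, the named calls against mature oligodendrocytes were lost too, and the differences fell to 0.39 for Ntn1, 0.93 for Olfm2 and 1.15 for Gsap, while Sulf1 had 2.14, Hes5 2.21 and Col23a1 -8.50.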

How the results depend on the processing

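The comparisons with precursors and mature oligodendrocytes kept their total counts of calls within 1.5 times the reported ones under every alternative run, but genes lower than in mature oligodendrocytes (926) became 607 without C57J 1 and 591 with no replicate block, and genes lower than in precursors (1068) 711 after thinning. Of 280 single-gene results, recomputed for all nuclei of the rule, 161 kept direction and side of the threshold under every alternative, and 9 reversed in some alternative.
The share reversed for BALB/c relative to C57J, from a log2 ratio of 0.65 to -1.35 without nuclei that met another gate, -0.63 with the stricter rule, -0.52 after thinning and -0.95 after both thinning and removal, and was 1.64 over all nuclei, where thinning gave 0.46, the removal of nuclei that met another gate -0.50 and both steps 0.012, so the turn after thinning was seen only over the lineage, and the ratio of nude to C57J, -0.42, became -0.72 with the stricter rule, -0.25 after thinning and removal and -1.07 over all nuclei.
Over all nuclei of the rule the background comparison (3 genes) gave 6 with DESeq2, 284 without a filter, 30 with the stricter rule, 1 after thinning and 41 to 912 with a library left out. The interaction with precursors (2) gave 97 without a filter, 0 with the stricter rule, 0 without predicted doublets, 0 after thinning and 0 to 534 with a library left out, and that with mature oligodendrocytes (15) gave 0 with DESeq2, 136 without a filter, 8 with the stricter rule, 25 without nuclei that met another gate, 0 without predicted doublets, 0 after thinning and 0 to 598 with a library left out.
The sides (836) gave 1331 without a filter, 26 with the stricter rule, which left 3 libraries, 334 without nuclei that met another gate and 483 to 911 with a library left out.
Genes higher than in both classes (268) became 502 with the stricter rule, 438 without nuclei that met another gate and 173 after thinning, and genes lower than in both (62) 33 with DESeq2, 107 without a filter, 182 with the stricter rule, 180 without nuclei that met another gate, 18 without predicted doublets, 28 after thinning and 17 to 100 with a library left out.
In the nuclei that met neither other gate, a left-out library gave 0 to 280 genes between backgrounds, 0 to 229 and 3 to 267 for the interactions with precursors and mature oligodendrocytes, 126 to 446 for the sides and 103 to 164 for genes lower than in both classes, and DESeq2 gave 11 for the interaction with mature oligodendrocytes and 206 for the sides. With predicted doublets removed from these nuclei, 0 genes were called between backgrounds and in both interactions (201, 599 and 610 at an unadjusted p under 0.05), and 212 between sides. The cause of these changes was not tested. Leaving out any library leaves 1 library of its background, which is then assumed to vary like the others.
Counts with 0 calls still had 694, 726 and 532 genes at an unadjusted p under 0.05 for the interaction with precursors (stricter rule, without doublets, thinned) and 303, 799 and 575 for that with mature oligodendrocytes (DESeq2, without doublets, thinned). With a library left out, edgeR's counts of 0 in the interactions went with 561 to 644 such genes.
Single genes that reversed were Ndst4 between backgrounds (-0.015, stricter rule), Prom1 (-0.35), Rnf122 (-0.49) and Sdk2 (0.14) in the interaction with mature oligodendrocytes and Ryr3 (0.61) and Ntng1 (0.0089) in that with precursors, all 5 without predicted doublets, and, against precursors, Pstpip2 (-0.047 with DESeq2, -1.25 with the stricter rule, -1.50 without nuclei that met another gate, -0.52 to 0.32 with a library left out), Sox6 (0.18 with the stricter rule, 0.15 without nuclei that met another gate) and Creb5 (0.20 without predicted doublets, 0.11 after thinning, -0.22 to 0.18 with a library left out).

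The library was a block in all comparisons of classes and sides, since the nuclei of a pool are paired by their mice. With no replicate block, 1774 genes were called against precursors, 1534 against mature oligodendrocytes and 760 between sides, 232 were higher and 22 lower than in both classes, Creb5 reversed against precursors (0.058), and the nuclei that met neither other gate gave 1788, 1915, 310, 402 and 130. Backgrounds were compared without pairing, because their pools came from different mice. Only C57J 2, nude and BALB/c shared a batch.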
